A study of Mus musculus with 24 samples.

Results

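This account concerns 10 genes of the step at which a cell commits to S phase: the cyclin genes Ccnd1, Ccnd2, Ccnd3, Ccne1 and Ccne2 and the cyclin-dependent kinase (CDK) inhibitor genes Cdkn1a, Cdkn1b, Cdkn2a, Cdkn2b and Cdkn2c. They were found in the deposited RNA-seq table by gene symbol, and each had 1 row among its 23119 genes. The cells were JB4/EI7HZ2 mESCs, a female mouse embryonic stem cell line from a JF1 mother and a B6 father, called WT, and a SmcHD1-KO line derived from it with CRISPR-Cas9. SmcHD1 is a chromatin protein needed for stable silencing of the inactive X chromosome. Each genotype was sequenced as mESCs, as neurectoderm cells on day 7 and day 9 of differentiation, and as neural stem cells (NSCs) after a separate, longer protocol, with 3 libraries in each of the 8 groups. WT and KO mESCs were both kept in medium with serum, 2i and LIF, and G418 and Zeocin were used to retain cells with both X chromosomes. Day 7 and day 9 cells came from epiblast-like cells grown on as aggregates, and NSCs were expanded with FGF2 and EGF. Each genotype was 1 line, so loss of SmcHD1 and any other difference between the lines cannot be told apart.

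Values are FPKM, fragments scaled to transcript length and to the mapped fragments of a library, so levels of different genes can be set side by side per length. Means are given ± SD over 3 libraries. A gene was called when limma on log2(FPKM + 1) gave an adjusted p under 0.05 over 12105 genes, and all 10 members passed the filter on low values. Smchd1 itself was 4.64-fold to 6.45-fold lower in KO than in WT cells, without overlap of libraries at any stage. Relative read numbers estimated from 2798 low genes differed by 1.42-fold between the deepest and the shallowest library. Summed pluripotency markers were 2473 to 2979 FPKM in mESCs and 5.72 to 12.6 FPKM in NSCs, and summed neurectoderm and neural stem markers were 91.2 to 154 FPKM in mESCs and 3722 to 6714 FPKM in NSCs. WT NSCs replicate 1 stood apart from the other WT NSC libraries in S phase genes, in G2 and M phase genes and in markers of other cell types. The summed level of 15 S phase genes was 1740 FPKM there, and 738 and 1062 FPKM in replicates 2 and 3. The summed level of 10 G2 and M phase genes was 804 FPKM in replicate 1, and 578 and 630 FPKM in replicates 2 and 3. Of these genes Mki67, a marker of cycling cells, did not set it apart, at 47.3, 49.3 and 26.6 FPKM in replicates 1, 2 and 3. Summed astrocyte markers were 7.84 FPKM in replicate 1 against 31.5 and 40.6 FPKM, and fibroblast and mural markers 6.86 against 0.329 and 0.236 FPKM. Postmitotic neuron markers, of which Map2 was not found by its symbol, summed to 10.9 against 29.1 and 29.2 FPKM. Calls in NSCs that changed without that library, or values that moved by much, are given with and without it.

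In G1, mitogens raise D cyclins, which bind CDK4 or CDK6 and phosphorylate the retinoblastoma protein and its relatives, which releases E2F factors. E2F factors turn on the E cyclins, which with CDK2 complete the phosphorylation and start DNA replication. The INK4 inhibitors, encoded here by Cdkn2a, Cdkn2b and Cdkn2c, bind CDK4 and CDK6, whereas the CIP/KIP inhibitors, encoded by Cdkn1a and Cdkn1b, mainly restrain cyclin E-CDK2. Cdkn1a is a classic target of p53, and Cdkn2a encodes in separate reading frames both an INK4 protein and ARF, which stabilises p53. Mouse ES cells are known for a short G1 and neural stem cells for a longer one.

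Of the 10 members, 7 matched RefSeq promoter windows in build GRCm38.p6, with 11 windows in all. Each window ran from 250 bases before to 50 bases after a transcript start. Those of Cdkn1a, Cdkn2a and Cdkn2b are printed because these 3 inhibitors differed between KO and WT cells, as did the cyclin gene Ccnd2. Capitals mark the letters of 3 sites that were searched on both strands. The first is the E2F site, with the letters TTTCCCGC, TTTCGCGC, TTTGCCGC or TTTGGCGC, found in 2.26% of 32851 windows. The second is the cyclic AMP response element TGACGTCA, found in 1.79%. The third is a p53 site of 20 bases with at most 1 mismatch, a form widened after the exact form matched no window of a member, and found in 0.0670%.
Cdkn1a, upstream window, plus strand, chr17:29090729-29091028: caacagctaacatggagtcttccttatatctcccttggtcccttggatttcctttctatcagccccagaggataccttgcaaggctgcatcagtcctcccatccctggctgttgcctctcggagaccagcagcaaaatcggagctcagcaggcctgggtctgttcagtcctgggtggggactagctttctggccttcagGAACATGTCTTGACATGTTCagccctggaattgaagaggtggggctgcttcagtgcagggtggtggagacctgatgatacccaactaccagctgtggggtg
Cdkn1a, downstream window, plus strand, chr17:29093519-29093818: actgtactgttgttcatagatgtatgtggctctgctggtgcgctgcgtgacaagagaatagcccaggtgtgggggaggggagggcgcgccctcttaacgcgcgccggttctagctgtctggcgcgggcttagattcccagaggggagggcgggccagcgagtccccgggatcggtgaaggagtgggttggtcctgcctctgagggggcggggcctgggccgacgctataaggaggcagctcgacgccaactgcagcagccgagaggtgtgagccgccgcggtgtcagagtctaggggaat
Cdkn2a, upstream window (ARF transcript), minus strand, chr4:89294570-89294869: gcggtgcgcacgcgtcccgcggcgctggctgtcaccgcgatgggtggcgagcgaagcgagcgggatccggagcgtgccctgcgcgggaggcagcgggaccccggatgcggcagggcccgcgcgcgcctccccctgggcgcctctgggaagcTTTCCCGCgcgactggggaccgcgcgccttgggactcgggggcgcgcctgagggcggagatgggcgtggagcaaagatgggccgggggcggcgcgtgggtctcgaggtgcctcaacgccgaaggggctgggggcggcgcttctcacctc
Cdkn2a, downstream window (INK4 transcript), minus strand, chr4:89282143-89282442: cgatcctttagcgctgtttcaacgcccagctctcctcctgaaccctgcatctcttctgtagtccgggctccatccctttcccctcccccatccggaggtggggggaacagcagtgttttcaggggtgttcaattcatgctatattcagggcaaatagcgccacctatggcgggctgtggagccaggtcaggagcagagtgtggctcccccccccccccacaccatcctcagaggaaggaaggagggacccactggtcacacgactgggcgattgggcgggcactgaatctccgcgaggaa
Cdkn2b, minus strand, chr4:89310983-89311282: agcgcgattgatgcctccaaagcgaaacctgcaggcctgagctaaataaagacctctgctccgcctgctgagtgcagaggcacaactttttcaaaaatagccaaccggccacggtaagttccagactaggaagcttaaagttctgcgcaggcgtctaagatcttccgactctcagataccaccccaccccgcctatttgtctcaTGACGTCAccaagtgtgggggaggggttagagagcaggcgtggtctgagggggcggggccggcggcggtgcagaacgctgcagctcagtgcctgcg
The p53 match began at position -51 from the upstream Cdkn1a start, the E2F match at position -99 from the upstream Cdkn2a start, and the cyclic AMP response element at position -46 from the Cdkn2b start. None of these 3 sites matched in the other 8 windows of members. A match is a description of the sequence and not evidence of binding. Windows for Ccnd1, Ccnd2 and Ccne2 were not used here.

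The D cyclins were exchanged during differentiation. Ccnd3 gave nearly all D cyclin RNA in mESCs, and Ccnd1 and Ccnd2 gave most of it in NSCs, in both genotypes. Ccnd2, which lies on chr6:127075797-127101066 (mm9, minus strand) and encodes cyclin D2, the D cyclin of many neural progenitors, was 0.517, 0.588 and 0.191 FPKM in the WT mESC libraries. It was 31.8, 52.9 and 52.99 FPKM in WT day 7 libraries, 54.3, 51.8 and 60.0 FPKM on day 9, and 151, 87.2 and 148 FPKM in WT NSCs. Every later library lay far above the mESC libraries, and day 7 and day 9 overlapped. Against WT mESCs, Ccnd2 rose on the log2 scale by 5.01 ± 0.21 (SE) on day 7, 5.31 ± 0.21 on day 9 and 6.47 ± 0.21 in NSCs (adjusted p 1.95e-14, 3.39e-15 and 5.20e-17). The ratios of mean FPKM were 106, 128 and 298, larger than these log2 values give, since the added 1 FPKM exceeds the mESC level of Ccnd2. A non-coding gene on the opposite strand that shares its table locus, 9330179D12Rik, did not exceed 0.988 FPKM in any library.

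Ccnd3 (chr17:47642000-47736632, plus strand) encodes cyclin D3. It took the opposite course, with 194, 325 and 300 FPKM in WT mESCs, 71.8 to 89.7 FPKM over WT day 7 and day 9 libraries and 32.0, 25.6 and 34.5 FPKM in WT NSCs. The 3 levels did not overlap. It fell, with log2 differences of -1.73 ± 0.17 on day 7, -1.70 ± 0.17 on day 9 and -3.09 ± 0.17 in NSCs (adjusted p 1.18e-08, 7.64e-09 and 2.45e-13). Bysl, which overlaps Ccnd3 on the other strand, was also higher in mESCs, at 53.7 FPKM in WT mESCs and 16.9 FPKM in WT NSCs, and whether strand was used in counting is not given in the sources used here.

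Ccnd1 (chr7:152115836-152125774, minus strand, overlapped by Oraov1 on the plus strand) encodes cyclin D1, the D cyclin most directly raised by growth factor signalling. Its WT values were 16.2, 51.6 and 26.2 FPKM in mESCs, 56.0, 74.7 and 66.2 FPKM on day 7, and 109, 106 and 100.4 FPKM on day 9. WT NSCs gave 474, 67.1 and 188 FPKM, with a coefficient of variation of 85.9%, the highest of the 8 groups for Ccnd1. The log2 difference from WT mESCs was 1.18 ± 0.49 on day 7, 1.86 ± 0.49 on day 9 and 2.65 ± 0.49 in NSCs (adjusted p 0.0474, 0.00266 and 0.000101). Without WT NSCs replicate 1 the NSC difference was 1.96 (adjusted p 0.000378). The call on day 7 held in 1 of 6 fits that each left out 1 library. In KO cells Ccnd1 differed from KO mESCs by 0.52 on day 7 and 0.92 on day 9, neither called (adjusted p 0.379 and 0.103), and rose by 2.60 in NSCs.

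**Figure D1:**
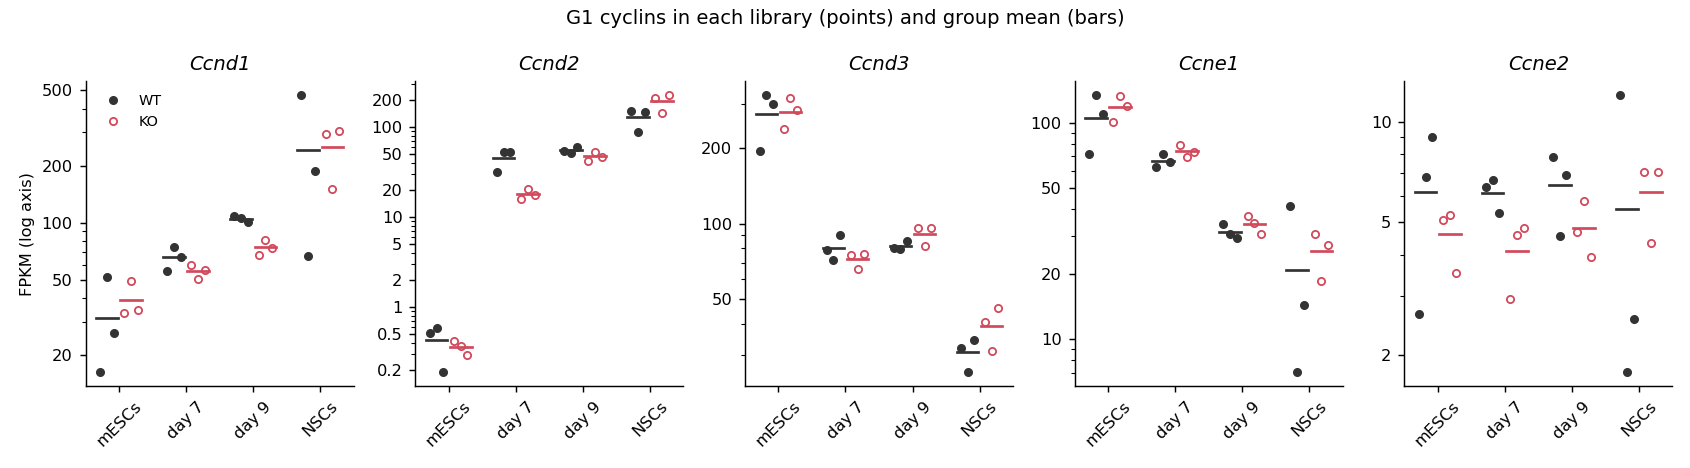
FPKM (log axis) of 5 G1 cyclin genes in each of 24 libraries by stage, with filled points for WT, open points for KO and a bar at each group mean. Ccnd2 went from under 1 FPKM in mESCs to over 80 FPKM in NSCs while Ccnd3 went from over 190 FPKM to under 50 FPKM, and the WT NSC libraries of Ccnd1, Ccne1 and Ccne2 were widely spread.

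As a share of the summed D cyclin FPKM of a library, Ccnd3 made up 90.0% ± 3.35 in WT mESCs, 42.1% ± 5.70 on day 7, 33.6% ± 0.961 on day 9 and 9.47% ± 4.69 in NSCs. In KO cells the Ccnd3 share was 87.7% ± 1.31, 49.4% ± 1.32, 42.9% ± 4.60 and 8.33% ± 1.16. The Ccnd2 share was 0.153% ± 0.0936 in WT mESCs and 37.2% ± 12.9 in WT NSCs. On day 7 it was 23.7% ± 4.00 in WT and 12.5% ± 2.31 in KO cells, without overlap of libraries, and on day 9 it was 22.9% ± 1.36 and 22.2% ± 2.17, with overlap. The summed level itself moved less than its makeup: it was 305 ± 85.5 FPKM in WT mESCs, 192 ± 22.2 on day 7, 242 ± 4.62 on day 9 and 403 ± 240.3 in NSCs, where libraries ranged from 180 to 657 FPKM. In WT NSCs replicates 1, 2 and 3 the share of Ccnd1 was 72.1%, 37.3% and 50.7%, that of Ccnd2 23.05%, 48.5% and 39.96% and that of Ccnd3 4.86%, 14.2% and 9.32%. Replicate 1 had the highest Ccnd1 share and the lowest Ccnd2 and Ccnd3 shares.

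**Figure D2:**
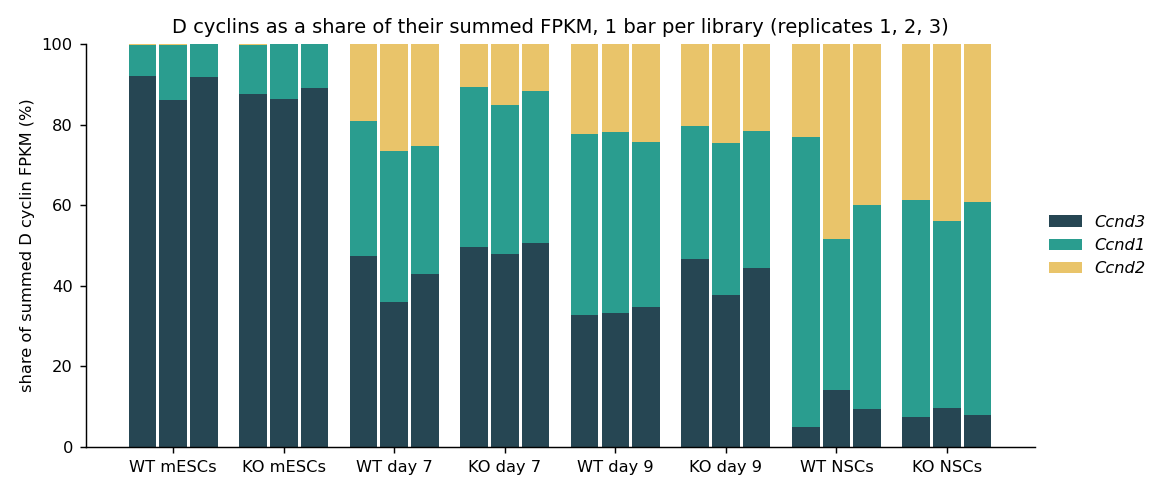
Share (%) of Ccnd3, Ccnd1 and Ccnd2 in the summed D cyclin FPKM, 1 stacked bar for each of 24 libraries in the order of replicates 1, 2 and 3. Ccnd3 took 86.2% or more in each mESC library and 14.2% or less in each NSC library.

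Of the E cyclins, which activate CDK2, Ccne1 fell with differentiation and Ccne2 stayed low. Ccne1 (chr7:38883003-38892553, minus strand) was 71.9, 135 and 109 FPKM in WT mESCs, 62.6 to 71.8 FPKM on day 7, 29.3 to 34.0 FPKM on day 9 and 41.1, 7.02 and 14.4 FPKM in NSCs. Day 9 libraries were all below day 7 libraries, and NSC replicate 1 was above every day 9 library. Against WT mESCs it did not pass on day 7 (-0.61 ± 0.37, adjusted p 0.168), and it fell by 1.68 ± 0.37 on day 9 and by 2.57 ± 0.37 in NSCs (adjusted p 0.000518 and 4.03e-06), with -3.21 in NSCs without WT NSCs replicate 1. From day 7 to day 9 Ccne1 fell by 1.07 in WT and by 1.10 in KO cells (adjusted p 0.0327 and 0.0313), calls that held in 0 of 6 fits leaving out 1 library in either genotype.

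Ccne2 (chr4:11118498-11131926, plus strand) lay between 1.78 and 12.03 FPKM in all 24 libraries and was called in none of the comparisons between stages when all libraries were used. Without WT NSCs replicate 1 it was lower in WT NSCs than in WT mESCs (-1.07, adjusted p 0.00435). Its highest and lowest libraries were both WT NSCs, 12.03 FPKM in replicate 1 and 1.78 FPKM in replicate 2. Its table locus also spans Ints8 on the other strand, at 18.6 to 39.0 FPKM. Per length, Ccne1 exceeded Ccne2 in each of the 8 group means, by 105 against 6.16 FPKM in WT mESCs and 20.8 against 5.46 FPKM in WT NSCs. Both WT NSC means were raised by replicate 1. In replicates 2 and 3 Ccne1 was 7.02 and 14.4 FPKM and Ccne2 was 1.78 and 2.58 FPKM.

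The inhibitors moved in different directions. Cdkn1b (chr6:134870419-134875531, plus strand), which encodes the inhibitor linked to cell cycle exit of progenitors, was lowest in mESCs at 7.41, 4.83 and 5.59 FPKM. It was 19.1 to 20.1 FPKM on day 7, 30.7 to 35.8 FPKM on day 9 and 34.2, 47.0 and 43.1 FPKM in NSCs in WT cells. No later library overlapped the mESC libraries, and Cdkn1b rose by 1.60 ± 0.15, 2.33 ± 0.15 and 2.62 ± 0.15 (adjusted p 4.81e-09, 5.35e-12 and 4.16e-13).

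Cdkn2c (chr4:109333481-109339794, minus strand), an INK4 gene active in neural progenitors, rose late. Its WT values were 1.36 to 2.55 FPKM in mESCs, 0.237 to 0.970 FPKM on day 7, 4.55 to 5.93 FPKM on day 9 and 45.4, 47.0 and 45.5 FPKM in NSCs. These 4 groups did not overlap. On the log2 scale Cdkn2c fell by 0.87 ± 0.20 on day 7, then was 1.07 ± 0.20 higher than in mESCs on day 9 and 3.95 ± 0.20 higher in NSCs (adjusted p 0.000893, 6.69e-05 and 9.83e-14).

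Cdkn1a and Cdkn2a instead were low on days 7 and 9 and high in both mESCs and NSCs. Cdkn1a (chr17:29227924-29237667, plus strand) was 175, 102 and 131 FPKM in WT mESCs, 27.0, 36.1 and 34.3 FPKM on day 7, 41.4, 50.3 and 47.3 FPKM on day 9 and 204, 93.9 and 137 FPKM in NSCs. The mESC and NSC libraries overlapped and lay above all day 7 and day 9 libraries. It fell on both days, with log2 differences of -2.01 ± 0.22 and -1.5025 ± 0.22 (adjusted p 9.58e-08 and 3.32e-06), and differed by 0.06 ± 0.22 in NSCs (adjusted p 0.830), where scaling all libraries to the same FPKM sum gave 0.50 (adjusted p 0.0440) and leaving out WT NSCs replicate 1 gave -0.22 (adjusted p 0.338).

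Cdkn2a (chr4:88920377-88940557, minus strand) was 66.2, 36.6 and 45.5 FPKM in WT mESCs, 5.55, 3.35 and 3.83 FPKM on day 7, 1.65, 1.69 and 2.70 FPKM on day 9 and 54.8, 44.7 and 47.4 FPKM in NSCs. Day 7 and day 9 lay far below both other stages, which overlapped. The log2 differences from WT mESCs were -3.25 ± 0.26, -4.04 ± 0.26 and 0.02 ± 0.26 (adjusted p 1.12e-09, 1.63e-11 and 0.946). The table gives 1 value for the gene, so the ARF and INK4 transcripts, whose start windows are printed above, were not told apart.

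Cdkn2b (chr4:88952198-88956941, minus strand), its neighbour 11640 bases away, was 2.06 to 4.19 FPKM in WT mESCs, 1.03 to 2.51 FPKM on day 7, 1.03 to 1.44 FPKM on day 9 and 5.74, 5.10 and 13.3 FPKM in NSCs. It rose by 1.09 ± 0.28 in NSCs (adjusted p 0.00137). On day 9 it fell by 0.80 ± 0.28 (adjusted p 0.0145), a call lost under scaling to the same FPKM sum (adjusted p 0.0982), and the day 7 difference of -0.59 was not called. Against KO mESCs, KO NSCs rose in both, by 1.83 ± 0.26 for Cdkn2a and 2.21 ± 0.28 for Cdkn2b (adjusted p 2.18e-06 and 2.79e-07).

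**Figure D3:**
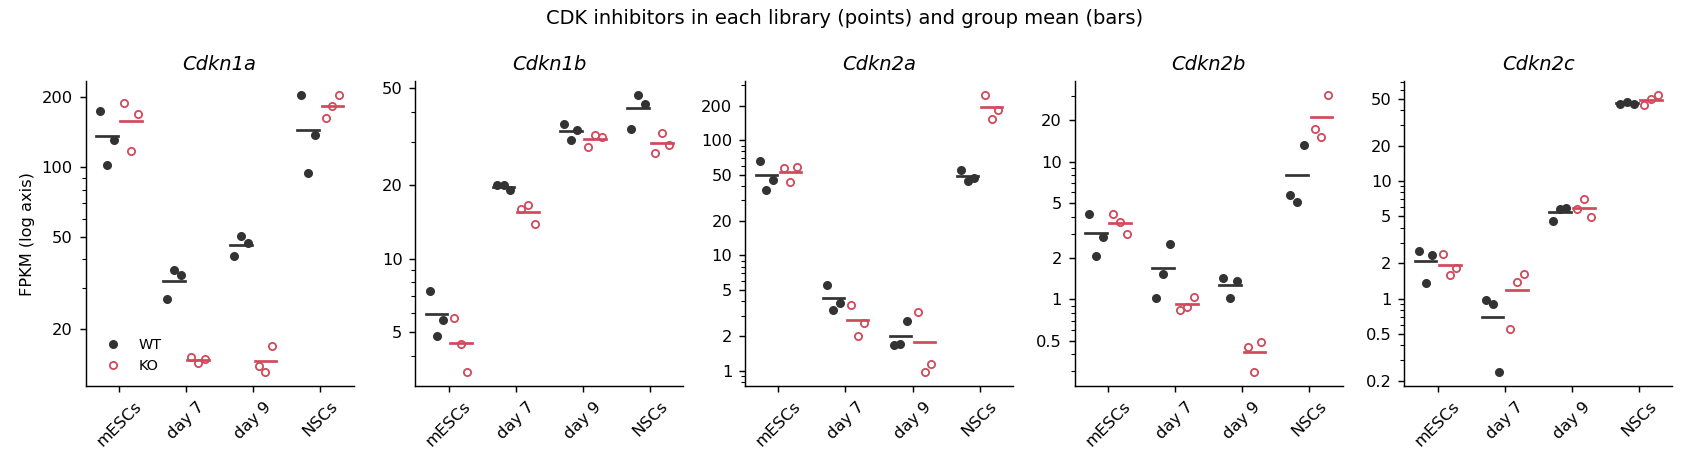
FPKM (log axis, scaled for each gene) of 5 CDK inhibitor genes in each of 24 libraries by stage, with filled points for WT, open points for KO and a bar at each group mean. Cdkn1a and Cdkn2a were lowest on days 7 and 9, Cdkn1b and Cdkn2c were highest from day 9 on, and KO NSCs stood above WT NSCs in Cdkn2a and Cdkn2b.

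Against WT mESCs, 7 of 10 members were called on day 7 (3 higher, 4 lower), 9 on day 9 (4 higher, 5 lower) and 7 in NSCs (5 higher, 2 lower), beside 59.2%, 71.5% and 75.2% of all genes tested. Of all genes, 29.1%, 36.4% and 36.9% were called higher and 30.2%, 35.1% and 38.3% lower. In KO cells 6 members were called on day 7 (2 higher, 4 lower), 8 on day 9 (3 higher, 5 lower) and 8 in NSCs (6 higher, 2 lower), beside 61.3%, 71.3% and 76% of all genes. Higher calls there were 29.5%, 35.7% and 37.7% of all genes and lower calls 31.8%, 35.6% and 38.2%. The members' totals are near the background. From day 7 to day 9, 4 members were called in WT cells (33.8% of all genes, 18.5% higher and 15.3% lower) and 4 in KO cells (30.6%, with 17.2% higher and 13.4% lower), with Cdkn1b and Cdkn2c higher and Ccne1 lower in both, Cdkn2a lower in WT and Ccnd2 higher in KO cells. Scaling to the same FPKM sum moved the median of all genes in the comparisons with mESCs up by 0.18 to 0.43 on the log2 scale. The share of higher calls among all called genes, 48.1% to 50.9% in these comparisons, was then 63.3% to 69.1%, and no called member changed sign. From day 7 to day 9 in WT cells that share went from 54.6% to 72.2%.

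Between genotypes, no member was called in mESCs. Cdkn1b had the only unadjusted p under 0.05, with 7.41, 4.83 and 5.59 FPKM in WT and 5.69, 4.48 and 3.42 FPKM in KO mESCs (limma, -0.33 ± 0.15, adjusted p 0.587). Of all genes, 0.529% were called at this stage. The libraries overlapped for all 10 members, as against no overlap for 11% of all genes. The largest difference in size was that of Ccnd1, 0.44 ± 0.49, whose WT libraries ranged from 16.2 to 51.6 FPKM and KO libraries from 33.4 to 49.2 FPKM. Over all genes tested, deviations of WT and KO mESC libraries of the same number correlated at r 0.141 to 0.435. In every numbered pair KO was below WT in Cdkn1b and above WT in Cdkn1a, at 188, 117.5 and 169 FPKM against 175, 102 and 131 FPKM. Pairs of each other member went both ways.

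On day 7, KO cells had lower Ccnd2 and lower Cdkn1a than WT cells. Ccnd2 was 31.8, 52.9 and 52.99 FPKM in WT and 15.9, 20.6 and 17.6 FPKM in KO libraries. Every KO library lay below every WT library, and the KO mean was 2.54-fold lower (log2 difference -1.27 ± 0.21, adjusted p 0.000608). Cdkn1a was 27.0, 36.1 and 34.3 FPKM in WT and 15.2, 14.3 and 14.8 FPKM in KO libraries. Again no libraries overlapped, and the KO mean was 2.19-fold lower (-1.07 ± 0.22, adjusted p 0.00485). These were 2 of 10 members called, both lower, beside 3.68% of all genes called and 2.5% called lower. The groups did not overlap for 4 of 10 members, which besides these were Ccne2 and Cdkn1b, and for 24% of all genes. Ccne2 was 5.33 to 6.69 FPKM in WT and 2.95 to 4.80 FPKM in KO libraries (adjusted p 0.699), and Cdkn1b was 19.1 to 20.1 and 13.9 to 16.6 FPKM (adjusted p 0.287). Ccnd1, Ccnd3 and Ccne1 overlapped between genotypes, with differences of -0.23, -0.15 and 0.15.

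Markers of other cell types differed between genotypes on day 7. Of 6 endoderm markers 3 were tested and 3 were lower in KO cells, with summed levels of 32.1 to 244 FPKM in WT and 0.496 to 2.48 FPKM in KO libraries. Of 5 mesoderm markers 2 were tested and 2 were lower, with sums of 57.8 to 156 and 2.15 to 3.804 FPKM, and Mesp1 was listed at 0 in every KO library. Fibroblast and mural markers had 1 of 5 lower, with sums of 33.1 to 46.3 and 11.5 to 16.1 FPKM. Of 6 neurectoderm and neural stem markers 1 was higher, Sox1 (0.72, adjusted p 0.0336), and 2 were lower, Olig2 (-1.39, adjusted p 0.0106) and Vim, with sums of 325 to 382 and 248.9 to 351 FPKM. No neuron marker was called, with 1 of 6 tested under an unadjusted p of 0.05 by limma. The part of these cell types in the lower Ccnd2 and Cdkn1a was not tested, and in bulk RNA fewer cells of a type and less RNA per cell cannot be told apart.

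On day 9, Cdkn1a was the member that differed, and by more than on day 7 in its mean. It was 41.4, 50.3 and 47.3 FPKM in WT and 13.9, 13.1 and 16.9 FPKM in KO libraries. All KO libraries lay below all WT libraries, with a mean 3.17-fold lower (-1.60 ± 0.22, adjusted p 4.68e-05). The KO mean of 14.6 ± 2.06 FPKM was close to that of KO day 7 cells, 14.8 ± 0.448 FPKM, with a difference of -0.02 ± 0.22 (adjusted p 0.953). In WT cells the same step gave 0.51 ± 0.22 (adjusted p 0.0816). Cdkn1a was 1 of 10 members called, beside 6.68% of all genes, and lower calls were 4.11% of all genes.

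Ccnd2 on day 9 was 54.3, 51.8 and 60.0 FPKM in WT and 42.0, 53.2 and 46.9 FPKM in KO libraries. The groups overlapped and the difference was -0.23 ± 0.21 (adjusted p 0.684). Members without overlap were 3 of 10, beside 32.3% of all genes: Cdkn1a, Ccnd1 and Cdkn2b. Ccnd1 was 109, 106 and 100.4 FPKM in WT and 68.0, 81.1 and 73.1 FPKM in KO cells, a mean 1.42-fold lower that was not called with the spread shared over all groups (-0.50 ± 0.49, adjusted p 0.711) and was called when the day 9 libraries were fitted alone (adjusted p 0.00482). Cdkn2b was 1.44, 1.03 and 1.35 FPKM in WT and 0.452, 0.295 and 0.489 FPKM in KO libraries (-0.68 ± 0.28, adjusted p 0.183), and was called when the day 9 libraries were fitted alone (adjusted p 0.0165) and with a pseudocount of 0.1 (-1.43, adjusted p 0.0210).

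Markers of other cell types differed on day 9 too. Of 8 postmitotic neuron markers 6 were tested and 4 were lower in KO cells, with summed levels of 568 to 630 FPKM in WT and 281 to 396 FPKM in KO libraries. Dcx, which is X-linked and whose chromosome was taken out by the authors, was listed at 0. Map2 was not found by its symbol, so the sums are of 7 markers. Fibroblast and mural markers had 4 of 5 lower, with sums of 33.3 to 83.6 and 21.2 to 33.4 FPKM, and endoderm markers had 1 of 3 tested lower, with sums of 53.7 to 102 and 6.22 to 29.9 FPKM. Mesoderm markers had 2 of 2 tested lower, and their sums were 16.4 to 47.2 and 4.38 to 15.4 FPKM. Of the neurectoderm and neural stem markers 2 were higher, Pax6 (0.83, adjusted p 0.0368) and Sox1, and Olig2 was lower (-1.29, adjusted p 0.0127), with sums of 1297 to 1614 and 1594 to 1818 FPKM. Of 4 neural crest markers tested, Tfap2a was higher (1.85, adjusted p 3.00e-06) and Ets1 lower (-0.78, adjusted p 0.0372). The part of these cell types in the lower Cdkn1a was not tested.

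Ccng1 and Phlda3, targets of p53 like Cdkn1a, were lower in KO cells on both days. Of 10 genes listed as p53 and its targets, 2 were called on day 7 and 2 on day 9, and on both days they were Ccng1 and Phlda3. Of all genes, 3.68% on day 7 and 6.68% on day 9 were called, with 2.5% and 4.11% called lower. Ccng1, which encodes cyclin G1, a p53-induced regulator, was 43.4, 60.1 and 48.9 FPKM in WT and 21.3, 28.6 and 22.0 FPKM in KO day 7 libraries (-1.05, adjusted p 0.000106). On day 9 it was 53.2, 52.3 and 54.5 FPKM in WT and 26.8, 32.0 and 27.6 FPKM in KO libraries (-0.87, adjusted p 0.000467). Phlda3, a p53-induced inhibitor of AKT, was 20.4 to 25.0 FPKM in WT and 12.97 to 15.9 FPKM in KO libraries on day 7 (-0.65, adjusted p 0.00724). On day 9 it was 21.0 to 26.2 and 9.30 to 12.7 FPKM (-1.03, adjusted p 3.49e-05). Neither gene overlapped between genotypes on either day. The other 8 genes of the list were not called, and on each day 6 had a lower and 2 a higher mean in KO cells. Their libraries did not overlap for 5 on day 7 and 7 on day 9, beside 24% and 32.3% of all genes. Of all 10 genes 4 on day 7 and 7 on day 9 had an unadjusted p under 0.05 by limma, counts for which no share of all genes is given here. The 2 with a higher mean were Trp53 and Pmaip1, and of the 8 the genes given here were chosen after their values were seen. Trp53 itself was 144 to 156 FPKM in WT and 159 to 172 FPKM in KO cells on day 7, and 76.2 to 85.2 and 96.8 to 103 FPKM on day 9. On day 9 Pmaip1 was 4.08 to 5.46 FPKM in WT and 5.66 to 11.6 FPKM in KO cells, and Sesn2 was 26.8 to 31.2 and 14.0 to 17.2 FPKM. Zmat3 was 10.5 to 12.1 and 7.90 to 8.64 FPKM on day 9, and Bbc3 was 15.1 to 17.3 and 9.92 to 11.9 FPKM. The median log2 difference over the 10 genes was -0.28 on day 7 and -0.34 on day 9, and over all genes tested it was -0.00052 and 0.

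**Figure D4:**
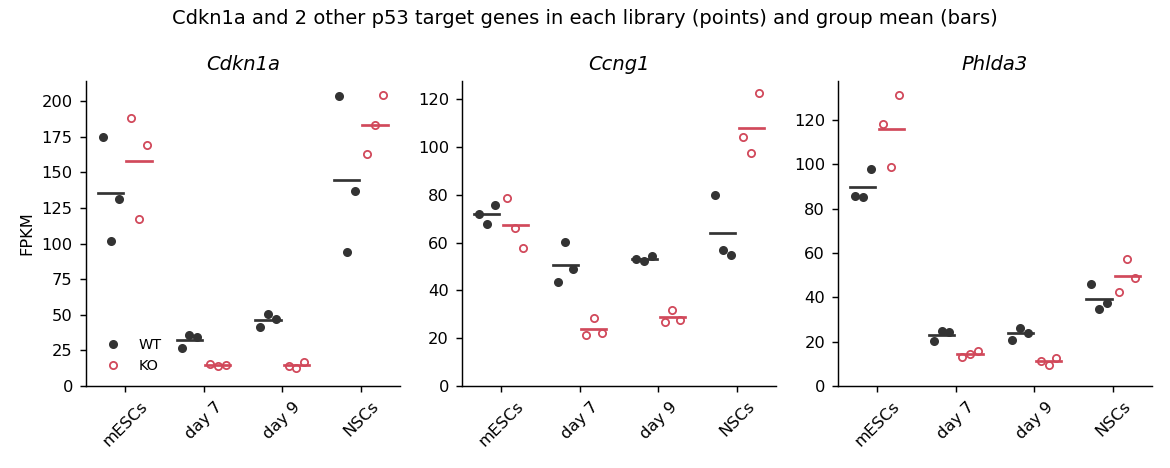
FPKM (linear axis from 0, scaled for each gene) of Cdkn1a, Ccng1 and Phlda3 in each of 24 libraries by stage, with filled points for WT, open points for KO and a bar at each group mean. In all 3 genes the KO libraries of days 7 and 9 lie below the WT libraries of the same day.

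In NSCs Cdkn2a and Cdkn2b, neighbours in the INK4 locus, were the members called, both higher in KO cells, and which members were called depended on the fit. Cdkn2a was 54.8, 44.7 and 47.4 FPKM in WT and 248, 152 and 184 FPKM in KO libraries. Every KO library lay far above every WT library, and the KO mean was 3.97-fold higher (1.94 ± 0.26, adjusted p 7.51e-05). Cdkn2b was 5.74, 5.10 and 13.3 FPKM in WT and 17.4, 15.1 and 30.7 FPKM in KO libraries. The groups did not overlap, although WT replicate 3 came near the lowest KO library, and the KO mean was 2.61-fold higher (1.33 ± 0.28, adjusted p 0.00494). With the NSC libraries fitted alone, Cdkn2b was not called (adjusted p 0.247) and Cdkn2a was (0.0160).

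Cdkn2c, the INK4 gene elsewhere on chromosome 4, was 45.4, 47.0 and 45.5 FPKM in WT and 44.4, 49.5 and 54.1 FPKM in KO NSCs, with overlap (0.10 ± 0.20, adjusted p 0.896). The summed INK4 level was 103 ± 5.40 FPKM in WT and 265 ± 46.8 FPKM in KO NSCs, and the Cdkn2a share of it was 47.5% ± 3.75 and 72.9% ± 6.26. These were 2 of 10 members called, both higher, beside 6.02% of all genes called and 2.54% called higher. The groups did not overlap for 3 of 10 members and for 16.7% of all genes. The other member without overlap was Cdkn1b, at 34.2, 47.0 and 43.1 FPKM in WT and 27.1, 32.9 and 29.3 FPKM in KO NSCs (-0.46 ± 0.15, adjusted p 0.0686).

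More members were called in NSCs under other fits. Over all genes tested, the deviations of WT and KO NSC libraries of the same number from their group means correlated at r 0.184 to 0.335, and a replicate block brought the members called to 5: Cdkn2a, Cdkn2b, Ccnd2 (0.60, adjusted p 0.00601), Ccnd3 (0.34, adjusted p 0.0208) and Cdkn1b (-0.46, adjusted p 0.0142). In every numbered pair KO exceeded WT in Ccnd2, at 212, 142 and 228 FPKM against 151, 87.2 and 148 FPKM, and in Ccnd3, at 40.5, 31.1 and 46.4 FPKM against 32.0, 25.6 and 34.5 FPKM. Without WT NSCs replicate 1, 7 members were called, and besides Cdkn2a and Cdkn2b these were Ccne1 (1.22, adjusted p 0.00207), Ccne2 (1.16, 0.0192), Ccnd2 (0.74, 0.0413), Cdkn1a (0.68, 0.0378) and, lower, Cdkn1b (-0.59, 0.0134). With all libraries Ccne1 was 41.1, 7.02 and 14.4 FPKM in WT and 30.8, 18.6 and 27.2 FPKM in KO NSCs, so the WT libraries lay on both sides of the KO libraries.

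Of the 10 genes of the p53 list, 2 were called in NSCs, Ccng1 and Trp53inp1, both higher in KO cells, beside 6.02% of all genes called and 2.54% called higher. Ccng1 was 80.0, 56.8 and 54.9 FPKM in WT and 104, 97.3 and 122 FPKM in KO libraries (0.76, adjusted p 0.00255). Trp53inp1, named after its values were seen, was 26.8, 26.4 and 18.8 FPKM in WT and 33.7, 40.4 and 38.8 FPKM in KO libraries. Sesn2, with the second largest difference of the list, was 28.1, 78.0 and 95.5 FPKM in WT and 34.2, 38.2 and 37.2 FPKM in KO libraries and was not called (-0.69, adjusted p 0.199). Cdkn1a was 204, 93.9 and 137 FPKM in WT and 163, 183 and 205 FPKM in KO NSCs, with overlap (0.40 ± 0.22, adjusted p 0.366). Mycn, a MYC gene of progenitors, was lower in KO NSCs (-1.29, adjusted p 0.00839), at 1.67, 4.25 and 7.08 FPKM in WT and 1.05, 1.25 and 0.673 FPKM in KO libraries. The KO levels are near the pseudocount, and WT replicate 1 lay near the KO libraries. Of 4 astrocyte markers 3 were tested and 1, S100b, was higher in KO NSCs, and their sums were 7.84 to 40.6 FPKM in WT, lowest in replicate 1, and 44.1 to 136 FPKM in KO libraries. Of 4 neural crest markers tested, Tfap2a was higher and Sox10 lower. Sox10 was 0.757, 9.17 and 6.75 FPKM in WT and 0.666, 0.298 and 0.856 FPKM in KO libraries, so WT replicate 1 lay among the KO libraries. Summed fibroblast and mural markers were 12.5, 0.675 and 0.987 FPKM in KO NSCs, highest in replicate 1 as in WT. Summed endoderm markers were 0 to 0.0597 FPKM in WT and 1.59 to 4.00 FPKM in KO NSCs, without overlap. Of these Foxa2 was listed at 0 in every WT library and was 0.543 to 2.24 FPKM in KO libraries (adjusted p 0.0746), and Gata4 was listed at 0 against 0.449 to 1.76 FPKM. Of 6 neurectoderm and neural stem markers 1, Vim, was lower, and the summed neurectoderm and neural stem markers were 5229 to 6714 and 3722 to 4599 FPKM. Their part in the higher Cdkn2a and Cdkn2b was not tested.

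**Figure D5:**
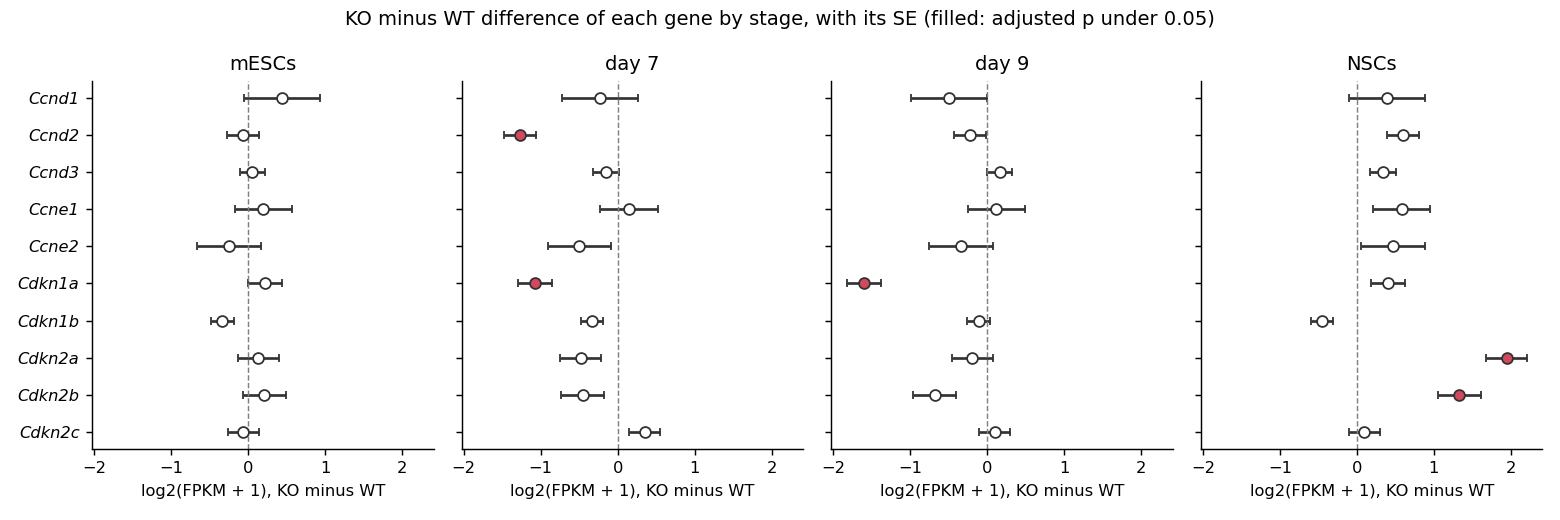
KO minus WT difference in log2(FPKM + 1) of each of the 10 genes at each stage, with its SE from limma and filled points where the adjusted p was under 0.05. Filled points are Ccnd2 and Cdkn1a on day 7, Cdkn1a on day 9, and Cdkn2a and Cdkn2b in NSCs.

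The KO effect was also compared between stages. For Cdkn1a it was more negative on day 9 than in mESCs by 1.83 ± 0.31 on the log2 scale (adjusted p 0.00130), and for Cdkn2a it was more positive in NSCs than in mESCs by 1.81 ± 0.37 (adjusted p 0.0129). On day 7 the difference from mESCs was -1.30 ± 0.31 for Cdkn1a and -1.21 ± 0.30 for Ccnd2 (adjusted p 0.0342 and 0.0374), and each of these held in 3 of 12 fits leaving out 1 library. For Cdkn2b in NSCs it was 1.12 ± 0.40 and not called (adjusted p 0.170), and it was called with a replicate block (0.0121). These counts of 2, 1 and 1 members on day 7, day 9 and in NSCs stand beside 1.68%, 2.68% and 2.26% of all genes, with 1.02% and 1.35% lower on days 7 and 9 and 1.14% higher in NSCs. All these comparisons share the mESC libraries.

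Averaged over the 4 stages, Cdkn1a was lower in KO cells (-0.51 ± 0.11, adjusted p 0.00481) and so was Cdkn1b (-0.31 ± 0.073, adjusted p 0.00909), 2 of 10 members beside 8.27% of all genes called and 5.27% called lower. The Cdkn1a average joins stages of opposite sign, with 0.22 in mESCs and 0.40 in NSCs. Cdkn1b had a KO mean below the WT mean at each stage, 4.53 against 5.94 FPKM in mESCs, 15.5 against 19.8 on day 7, 30.9 against 33.5 on day 9 and 29.7 against 41.4 in NSCs. Cdkn1b was called in this average without each of the 24 libraries in turn. With a replicate block, Ccnd2 and Cdkn2a were called in this average as well.

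Of the S phase genes 14 of 15 were lower in WT NSCs than in WT mESCs, and of the cell cycle and ERK response lists 1 gene was called between genotypes at a stage, beside 59.2% to 75.2% of all genes called between these stages and 0.529% to 6.68% between genotypes. By limma 0 of 15 S phase genes were called between KO and WT at any stage, and 0 had an unadjusted p under 0.05 at any of the 4. None of 10 G2 and M phase genes was called either, with 0 to 2 of them under an unadjusted p of 0.05. The summed FPKM nevertheless did not overlap on days 7 and 9 in either list, nor in mESCs for the G2 and M phase genes. S phase sums were 1845 to 1956 FPKM in WT and 2071.5 to 2108 FPKM in KO cells on day 7, and 1563.5 to 1593 and 1687 to 1814 FPKM on day 9. Sums of the G2 and M phase genes were 1039 to 1177 FPKM in WT and 1191 to 1227.5 FPKM in KO mESCs, 939 to 984 and 1019 to 1071 FPKM on day 7, and 867 to 936 and 976 to 1018 FPKM on day 9. As a percent of the FPKM sum of each library they overlapped at every stage except for the S phase genes on day 7, at 0.279% to 0.309% in WT and 0.313% to 0.322% in KO cells. The kinases Cdk2, Cdk4 and Cdk6 with Cdkn1c and Cdkn2d, the pocket proteins Rb1, Rbl1 and Rbl2, 10 E2F and DP factors and 6 genes that act on G1 regulators, among them ubiquitin ligase parts and Cdc25a, also gave 0 calls at each stage, with 0 to 2 of each list under an unadjusted p of 0.05. Against WT mESCs, 8, 11 and 14 of 15 S phase genes were lower on day 7, day 9 and in NSCs, beside 30.2%, 35.1% and 38.3% of all genes, led in NSCs by Cdt1, a replication licensing factor (-2.11, adjusted p 1.16e-09), and Mcm4, a helicase subunit (-1.93, adjusted p 1.71e-07). Of the pocket proteins 1, 3 and 3 of 3 were higher, beside 29.1%, 36.4% and 36.9% of all genes, with Rb1 at 0.90, 1.94 and 1.45 and Rbl2 at 2.08 in NSCs. Of the 10 E2F and DP factors 3, 5 and 2 were higher and 4, 2 and 3 lower. Of the kinases that bind D cyclins, Cdk6 was lower in WT NSCs (-2.23, adjusted p 2.54e-09), at 0.188 FPKM against 4.69 FPKM in WT mESCs. Cdk4, by far the more abundant of the pair per length, was 419 to 551 FPKM in WT mESCs and 532 to 625 FPKM in WT NSCs and was not called there. Of 7 genes of the ERK response, which raises Ccnd1, 6 were tested, and 4, 1 and 4 were higher and 1, 3 and 1 lower at these stages, with Dusp6 higher by 3.56, 2.81 and 3.64. The summed level of the 7 genes was 217 to 368 FPKM in WT mESCs and lower on both days, at 138 to 192 FPKM on day 7 and 61.2 to 91.2 FPKM on day 9. In WT NSCs it was 407 to 486 FPKM. Between genotypes 1 gene of this list was called, Etv4, higher in KO cells on day 9 (0.84, adjusted p 0.0458). On that day 3 of 6 had an unadjusted p under 0.05, a count for which no share of all genes is given here.

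The members also differed in how they ran together over the 24 libraries, which share stages and differ in depth. On log2(FPKM + 1), Pearson's r was 0.945 between Ccnd2 and Cdkn1b, 0.910 between Cdkn1a and Cdkn2a and 0.885 between the neighbours Cdkn2a and Cdkn2b, and it was -0.928 between Ccnd2 and Ccnd3. Among all other tested genes, those most like each member were Dck and Chsy1 for Ccnd1 (r = 0.922 and 0.920), 2310021P13Rik and Ptpla for Ccnd2 (0.986 and 0.982), and Smad7 and Manba for Ccnd3 (0.981 and 0.974). Ccne1 ran most closely with the ribosome biogenesis genes Nolc1 and Grwd1 (0.988 and 0.983), and Ccne2 with Polq and Idi1 (0.818 and 0.777). For the inhibitors they were Capns1 and Nt5dc3 for Cdkn1a (0.946 and 0.944), Marcks and Katnal1 for Cdkn1b (0.984 and 0.982), Blvra and Snx3 for Cdkn2a (0.967 and 0.966), Ampd3 and Skap2 for Cdkn2b (0.947 and 0.942), and Cspg5 and Mtap2 for Cdkn2c (0.982 and 0.978). Ccne2, the member with the least change between stages, had the weakest likeness to any other gene.

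The order of the 8 group means summarises the levels. Cdkn2a ran from 194 FPKM in KO NSCs, above all other groups without overlap, to 53.3, 49.5 and 49.0 FPKM in KO mESCs, WT mESCs and WT NSCs, which overlapped, and then to 4.24 FPKM or less on days 7 and 9. Cdkn1a had its 4 mESC and NSC groups overlapping between 136 and 183 FPKM, then WT day 9 at 46.3, WT day 7 at 32.4 and both KO groups near 15 FPKM, and the neighbours from WT mESCs down to KO day 7 did not overlap. Ccnd2 had KO day 7 at 18.0 FPKM alone between WT day 7 at 45.9 and both mESC groups under 0.5 FPKM. Ccne2 had all neighbouring groups overlapping.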

How the data were processed

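RNA-seq had been made by the authors from 24 libraries with a stranded mRNA kit. Reads were trimmed with Trim Galore 0.6.6 and mapped to mm9 with TopHat2 2.1.1, ribosomal and X chromosome reads were removed, and the deposited FPKM values came from Cuffdiff. How libraries were normalized and whether strand was used is not given in the sources used here. Read totals are not known, so no counting interval is given. The table also held 12 FPKM columns of samples outside this series, which were not used.

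Here, limma 3.58.1 (R 4.3.3) was fitted to log2(FPKM + 1) in 8 groups with trend and robust settings, over 12105 genes outside X and Y with a mean of at least 1 FPKM and no failed estimate, with Benjamini-Hochberg adjustment over all of them and calls at 0.05. The fit was tested on simulated data. Exact permutation tests of 3 against 3 libraries cannot give a p below 0.1, the value for each pair of groups without overlap. The p-values measure the spread between libraries of 1 line per genotype. Alternatives were a pseudocount of 0.1, no filter, scaling to the same FPKM sum, only the groups compared, a replicate block and leaving out each library.

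WT and KO libraries with the same number deviated together in mESCs (r 0.141 to 0.435) and NSCs (0.184 to 0.335) but not on day 7 (0.0376 to 0.0957) or day 9 (-0.107 to 0.0294). Named genes were the 10 members, Smchd1, at most the 2 genes with the largest difference in each other list, and the 2 genes most like each member, besides genes overlapping a member, markers listed at 0, and Vim, Sox1, Mki67, Cdk4, Trp53, Pmaip1, Sesn2, Zmat3, Bbc3 and Trp53inp1, named after their values were seen. The members and lists were chosen with earlier results of these data known. Gene positions are those of GENCODE vM1 on mm9.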

Additional observations from a re-analysis of the deposited data

Results flagged for a closer look

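The KO effect, as a log2 difference between KO and WT, differed between stages in 4 cases by limma's test of the difference itself. For Cdkn2a it was 1.81 ± 0.37 higher in NSCs than in mESCs (adjusted p 0.0129). For Cdkn1a it differed from that in mESCs by -1.83 ± 0.31 on day 9 (adjusted p 0.00130) and by -1.30 ± 0.31 on day 7 (adjusted p 0.0342). For Ccnd2 on day 7 it differed by -1.21 ± 0.30 (adjusted p 0.0374).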

How the results depend on the processing

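No called value changed direction under an alternative tried. Called members on day 9 went from 1 to 2 with a pseudocount of 0.1, 3 in the fit of the day 9 groups alone and 2 with a replicate block. In NSCs they went from 2 to 1 in the fit of the NSC groups alone and 5 with a replicate block, and ranged from 2 to 7 when 1 library was left out, with 7 without WT NSCs replicate 1. The replicate block took the average over stages from 2 to 4, the KO effect in NSCs against mESCs from 1 to 3 and that on day 9 from 1 to 2. The KO effect on day 7 against mESCs went from 2 to 1 with a pseudocount of 0.1 and to 1 in the fit of the groups compared, and from 0 to 2 on leaving out 1 library, with 0 without any of KO day 7 replicates 1 and 3, KO mESCs replicates 1 and 3, WT day 7 replicates 2 and 3 and WT mESCs replicate 3, and 2 only without WT day 7 replicate 1. Its NSC counterpart ranged from 1 to 2, with 2 without WT NSCs replicate 3. KO day 9 against KO day 7 went from 4 to 7 in the fit of those groups alone, and WT day 9 against WT day 7 ranged from 2 to 3 on leaving out 1 library, with 2 without WT day 7 replicate 1, WT day 9 replicate 1 or WT day 9 replicate 2. The cause was not tested. The block pairs libraries by number at every stage or between stages, also where libraries of the same number did not deviate together, as on days 7 and 9. With it, the average added Ccnd2 and Cdkn2a, and Ccnd1 on WT day 7 against mESCs was lost. Under scaling to the same FPKM sum, the share of calls that were higher in KO cells went from 38.6% to 22.7% on day 9 and from 42.2% to 54.4% in NSCs, and that of the KO effect against mESCs from 49.4% to 36.4% on day 9 and from 50.4% to 61.7% in NSCs. Levels under 1 FPKM, as for Ccnd2 in mESCs and Cdkn2b in KO day 9 cells, are near the pseudocount, so their differences are understated.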
